A study of Mus musculus with 2 samples.

Results

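Macrophages with C1q expression made up 135 of the 22086 kept barcodes of mouse E14 embryos, 57 in the library labelled WT and 78 in the library labelled KO. They were chosen as barcodes with at least 1000 UMIs (unique molecular identifiers, here counts of captured RNA molecules), at most 10% of UMIs in mitochondrial genes, at least 5 UMIs of C1qa, C1qb and C1qc together, and fewer than 20 UMIs of the mast cell genes Cma1, Cpa3 and Tpsb2. The C1q genes and the mast cell genes therefore chose the cells, and their values are given as a description.

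The study compared embryos in which Myf5-Cre deleted the splicing factor gene Srsf2. Embryos were decapitated and eviscerated, dissociated with enzymes, and sorted for the fluorescent reporter tdTomato before 10x Genomics single-cell RNA sequencing. The deposited titles give 1 library as SRSF2f/f and the other as SRSF2f/w (1 wild-type allele), so both genotypes carried Myf5-Cre, which is active in the skeletal muscle lineage and some other cells, at least 1 floxed Srsf2 allele and the Cre-dependent reporter. Each genotype was 1 library, so no test between genotypes was possible and the intervals below cover counting error only.

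The 2 libraries are named here by the run labels in their sequencing summaries, WT and KO. The deposited titles give SRSF2f/f to the run labelled WT and SRSF2f/w to the run labelled KO, which is opposite to the run labels, and every direction below rests on the run labels. Muscle cells, the lineage in which Myf5-Cre acts, numbered 1810 in the library labelled WT and 99 in the library labelled KO. The study reported a much smaller share of muscle cells in the mutant, which is the direction of the run labels. It also retained more mutant than control cells, whereas here more barcodes were kept from the library labelled WT. Which of the labels is right was not tested. Srsf2 was given first as a check of the labels. In the C1q macrophages it had 169 UMIs in the library labelled WT and 129 in the library labelled KO, 251 and 136 UMIs per 1000000 UMIs of the same cells (CPM), a log2 ratio of KO over WT of -0.89 (95% interval -1.23 to -0.55). It was also lower in the library labelled KO in all other kept cells (log2 ratio -0.52, interval -0.54 to -0.49), in muscle cells (-0.46), mesenchyme (-0.47), endothelial cells (-0.35) and mast cells (-0.64). The sources used here do not give the position of the deleted part relative to the counted read ends, so the count does not measure deletion. Of the 2 genes that overlap Srsf2 on the opposite strand, Mettl23 had a log2 ratio of -1.08 (16 UMIs in the library labelled KO) and Mfsd11 of 0.21 in the macrophages.

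Macrophages of the embryo arise from yolk sac and fetal liver progenitors, settle in tissues before birth and clear dying cells. Many make C1q, the recognition part of the classical complement pathway, which is built from the products of C1qa, C1qb and C1qc and also tags cell debris for uptake. They depend on signalling through the receptor Csf1r, whose ligands are Csf1 and Il34.

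C1qa, C1qb and C1qc lie side by side on the minus strand of chromosome 4 (GRCm38), between bases 136880129 and 136898803. The RefSeq promoter windows of C1qb (chr4:136886151-136886450, minus strand) and C1qc (chr4:136892865-136893164, minus strand) are shown because both genes were detected together in the macrophages, and they run from 250 bases before the RefSeq start to 50 bases after it in the strand of the gene. C1qa is not shown, since no window of it was among the sequences at hand. Capitals mark GAGGAA or its reverse complement TTCCTC, the core to which PU.1 (the product of Spi1) binds.
C1qb: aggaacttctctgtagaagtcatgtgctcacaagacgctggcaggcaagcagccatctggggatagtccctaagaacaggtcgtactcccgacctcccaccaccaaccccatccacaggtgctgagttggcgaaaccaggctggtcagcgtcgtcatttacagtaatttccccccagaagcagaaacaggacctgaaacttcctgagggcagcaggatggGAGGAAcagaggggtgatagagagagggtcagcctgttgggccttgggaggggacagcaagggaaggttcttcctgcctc
C1qc: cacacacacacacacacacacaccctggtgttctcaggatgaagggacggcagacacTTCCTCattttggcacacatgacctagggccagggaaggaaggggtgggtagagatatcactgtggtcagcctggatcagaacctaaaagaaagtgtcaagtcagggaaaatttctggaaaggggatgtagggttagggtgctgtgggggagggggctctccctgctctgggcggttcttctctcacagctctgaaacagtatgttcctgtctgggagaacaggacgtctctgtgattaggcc
The motif stood once in each window, 30 bases before the start of C1qb and 193 bases before that of C1qc. It was present in 28.3% of all 32817 RefSeq promoter windows of this length and in 38.4% of the 211 windows of genes enriched in the macrophages. A match is a description of the letters only.

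The summed C1q count of a macrophage had a median of 52 UMIs in the library labelled WT (quartiles 34 and 81, highest 137) and of 38 in the library labelled KO (quartiles 22.5 and 66, highest 129). C1qb was detected in all 57 and all 78 cells, C1qa in 55 and 71, and C1qc in 57 and 77. The share of the C1q UMIs that came from C1qa was 28.0% and 24.1%, from C1qb 44.4% and 48.8%, and from C1qc 27.6% and 27.1%. The mix of the 3 genes was thus close in both libraries. After each cell was thinned to 2000 UMIs (128 cells reached this depth), the rank correlation across cells was 0.43 for C1qa with C1qb, 0.48 for C1qa with C1qc and 0.60 for C1qb with C1qc, given as a description since the cells share 2 libraries.

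**Figure D1:**
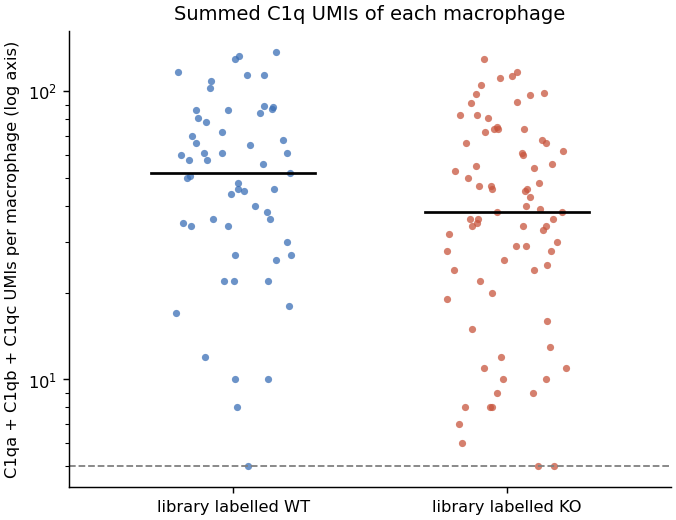
Summed C1qa, C1qb and C1qc UMIs of each macrophage on a log axis, by library label. Points are cells, black lines mark the medians of 52 and 38 UMIs, and the dashed line marks the limit of 5 UMIs that chose the cells.

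The limit of 5 UMIs fell where few cells lay. Kept cells with 3 or 4 C1q UMIs numbered 4 in the library labelled WT and 5 in the library labelled KO, cells with 5 or 6 numbered 1 and 3, cells with 7 to 9 numbered 1 and 6, and cells with 30 or more numbered 44 and 50. The macrophages held 95.7% and 96.0% of all C1q UMIs of kept cells. Among the other kept cells, 1.12% and 1.26% had at least 1 C1q UMI, and the shares were alike in mesenchyme (1.15% and 1.06%), endothelial cells (1.29% and 1.48%) and muscle cells (1.27% and 1.01%) at median depths of 11043 to 17619 UMIs. Mast cells had 0 of 30 and 4 of 295 (1.36%). The source of these UMIs was not tested. In no kept cell with 5 or more C1q UMIs did the mast cell genes reach 20 UMIs. They were at 0 in all 57 macrophages of the library labelled WT, and 57 of 78 were at 0 in the library labelled KO, where no cell had more than 2 such UMIs. Mast cells with under 5 C1q UMIs, counted at 20 or more UMIs of the same genes and clear of the other classes, numbered 30 and 295.

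The share of macrophages was 0.469% of 12144 kept barcodes in the library labelled WT (exact 95% interval 0.356 to 0.608) and 0.785% of 9942 in the library labelled KO (0.621 to 0.978). The share was 1.67-fold higher in the library labelled KO (interval 1.19 to 2.35), a log2 ratio of 0.74. Muscle cells, counted at 5 or more UMIs of Myod1, Myog, Pax7 and Myf5, numbered 1810 and 99, so the denominator differed between libraries, and without every barcode at that limit, which also left 55 and 77 macrophages, the log2 ratio was 0.54 (0.04 to 1.03). With at most 5% mitochondrial UMIs it was 1.22 (34 and 69 cells). The sort on tdTomato can set these shares, and whether macrophages carried the reporter was not tested, since no reporter sequence was among the 32285 counted genes.

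The depth of the macrophages was close in both libraries. They held 673269 UMIs in the library labelled WT and 951157 in the library labelled KO, with medians of 10018 and 10599 UMIs and 2886 and 2836.5 genes per cell. The median mitochondrial share was 4.63% and 3.37%, against 3.71% and 3.27% over all kept cells. Barcodes that both libraries shared numbered 74 of all deposited and 41 of kept ones. None of the 41 was a macrophage, and the rest of the 74 were not checked for this. UMIs of Y-linked genes were present in 41 of 57 and 58 of 78 macrophages and Xist, which marks female cells, was present in 0 and 1. Among the other cells, 14 of 12087 and 15 of 9864 had Xist.

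The macrophage label was checked against 10 identity genes that the rule did not use. A median of 8 of the 10 was detected per cell in both libraries, and 55 of 57 and 74 of 78 cells had at least 5. Csf1r, the receptor for Csf1, had no UMI in 2 and 10 cells. It had 434 CPM in the library labelled WT and 320 in the library labelled KO, against 0.601 and 1.42 in all other kept cells. Adgre1 (F4/80, an adhesion receptor) had 144 and 94.6 CPM, and Fcgr1 (an Fc receptor for IgG) had 87.6 and 93.6. Cells with no C1q UMI but with at least 5 of the identity genes also existed, 5 in the library labelled WT and 22 in the library labelled KO, and the rule left them out.

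Of 2442 genes with at least 100 UMIs over the macrophages, 240 were at least 4-fold above all other kept cells in both libraries (9.83%), and 40 were more than 100-fold above. All of these folds are descriptions, since the cells were picked by their RNA. Besides the C1q genes, the 20 most enriched included Fcrls, an Fc receptor-like protein, with 404 and 288 CPM against 0.106 and 0.0804 in other cells. They also held Trem2, a lipid-sensing receptor of phagocytes (431 and 286 CPM), the membrane proteins Ms4a7, Ms4a6b, Ms4a6c and Ms4a6d, the complement receptor C3ar1 (408 and 311 CPM) and Aif1, which binds actin (413 and 355 CPM). Secreted proteins among them were Pf4, Ccl3, Ccl4, Ccl12 and Ccl24. The remaining ones were Fcgr1, Adgre1, Cd300c2 and Ifi207. All 10 ranked genes of an identity list of 12 and 14 of 15 ranked chemokine and cytokine genes were among the 240. These 10 are not the same set as the 10 checked per cell, which held Mertk, a gene under the 100 UMIs. So were all 6 ranked complement genes, of which the 3 C1q genes had chosen the cells.

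**Figure D2:**
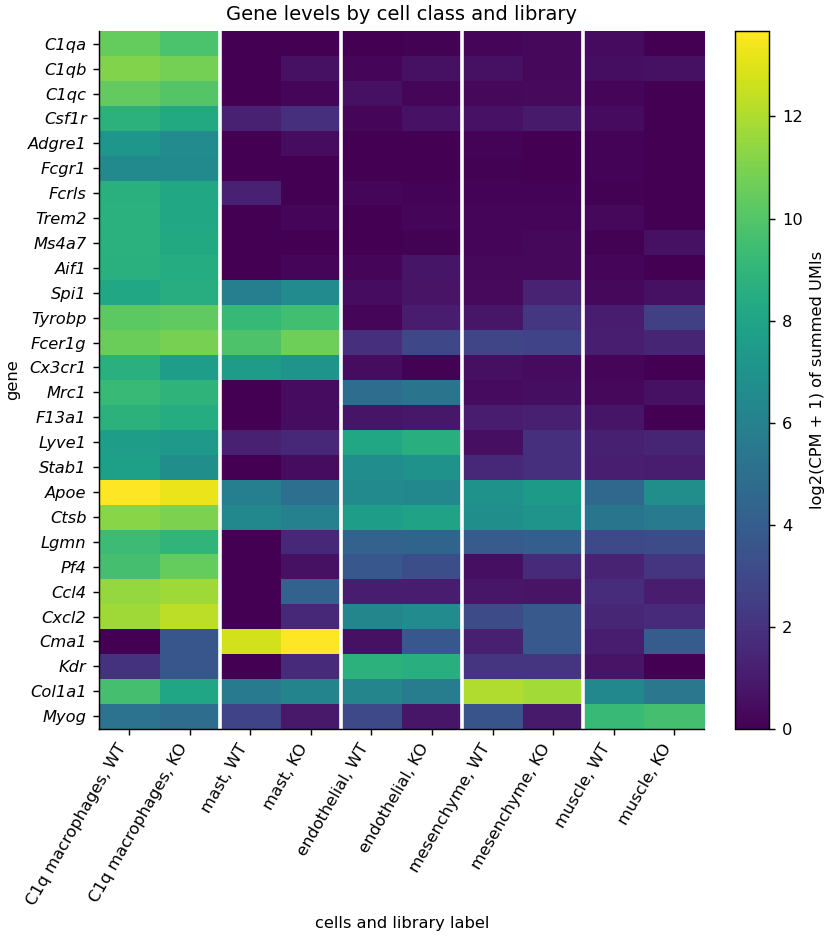
Level of marker genes as log2(CPM + 1) of summed UMIs, in rows, by cell class and library label, in columns. The macrophage columns stand apart for the rows from C1qa to Aif1, Tyrobp, Fcer1g, Spi1 and Cx3cr1 are shared with mast cells, and Mrc1, Lyve1 and Stab1 are shared with endothelial cells.

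Some macrophage genes were shared with other cells of the sort. The signalling adaptors Tyrobp (1211 and 1308 CPM) and Fcer1g (1567 and 1858 CPM) also had 567 and 742 CPM and 941 and 1637 CPM in mast cells. Spi1, which encodes PU.1, had 288 and 363 CPM in the macrophages and 58.5 and 95.8 in mast cells. Lyve1, a hyaluronan receptor of resident macrophages and lymphatic vessels, had 202 and 160 CPM in the macrophages and 294 and 400.0 in endothelial cells. Mrc1, the mannose receptor, reached 605 and 467 CPM in the macrophages and 28.6 and 37.8 in endothelial cells.

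In the complement list, the proteases that partner C1q were at 0. C1ra and C1s1, which encode the proteases of the C1 complex, had 0 UMIs in the macrophages, which allows at most 3 counts per library, and their levels in mesenchyme were 0.611 and 1.76 CPM for C1ra and 2.25 and 2.31 for C1s1. C3, the central complement protein, had 1 and 8 UMIs and C4b had 1 and 0. Cfp, which stabilises the convertase of the alternative pathway, had 18 and 54 UMIs. The receptors C3ar1 and C5ar1 (113 and 104 CPM) were both above 100-fold over other cells. Vsig4, a complement receptor of adult resident macrophages, had 0 UMIs.

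Among growth factor genes, Csf1 was found in the macrophages themselves at 59.4 and 76.7 CPM, with 54.2 and 32.2 in mast cells, 22.5 and 20.9 in mesenchyme and 4.97 and 6.69 in muscle cells. Il34, the other ligand of Csf1r, had 0 UMIs in the macrophages and 0.827 and 1.45 CPM in mesenchyme. Igf1, which promotes growth of muscle and other tissues, had 316 and 141 CPM in the macrophages and 261 and 195 in mesenchyme. Gas6, which bridges dying cells to the receptors Axl and Mertk, had 113 and 81.0 CPM in the macrophages and 17.2 and 18.6 in mesenchyme.

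Genes that separate macrophage types were present unevenly. Mrc1 and F13a1 (a subunit of coagulation factor XIII) were detected in 46 of 57 and 46 of 78 cells and in 41 and 48 cells, and Folr2 (a folate receptor) in 20 and 17. Timd4, a receptor for phosphatidylserine on many resident macrophages, had 1 UMI in each library, and Cd163 had 0 and 3. Of the microglia list, Fcrls and Trem2 were well above other cells, whereas P2ry12 had 13 and 21 UMIs, Tmem119 had 9 and 7 and Sall1 had 1 and 0. The monocyte and neutrophil list summed to 884 and 1760.0 CPM, mostly from Lyz2, lysozyme. Of its 4 ranked genes 2 were past 2-fold and higher in the library labelled KO, Lyz2 and S100a6, against 1.35% of all ranked genes. The median log2 ratio of the 4 was 1.02 against 0.94 in the other cells, and Fn1 (fibronectin, -0.16) and Plac8 (0.97) stayed within 2-fold. The sign of Plac8 turned with at least 3 C1q UMIs (-0.17). Fn1 turned to 0.33 with at most 5% mitochondrial UMIs and to 0.29 after each cell was thinned to 2000 UMIs. Other members had few UMIs. S100a4 had 9 and 63, Ly6c2 had 0 and 4 UMIs, S100a8 had 0 and 2, and Elane, Mpo and Camp had none. Ccr2, the receptor for Ccl2 on monocytes, had 21 and 15 UMIs.

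Between the libraries, most genes of the macrophages had close levels. The median log2 ratio of KO over WT was -0.02 over the 2442 ranked genes, against 0.04 for the same genes in the other kept cells. Past 2-fold, 33 genes were higher in the library labelled KO (1.35%) and 47 were lower (1.92%). With the top cell of each gene left out of each library, 27 and 42 were still past 2-fold. Of the 33 higher genes, 18 were among the 240 enriched ones, which were 9.83% of all ranked genes. A ratio above 0 in the other cells was found for 32 of the 33 and for 56.9% of all ranked genes. Of the 47 lower genes, 4 were enriched, 30 were below the level of other cells in both libraries and 35 also had a ratio under 0 in the other cells. Over all ranked genes, 41.5% were below other cells in both libraries and 43.1% had a ratio under 0 in the other cells. The 240 enriched genes had a median log2 ratio of -0.01.

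**Figure D3:**
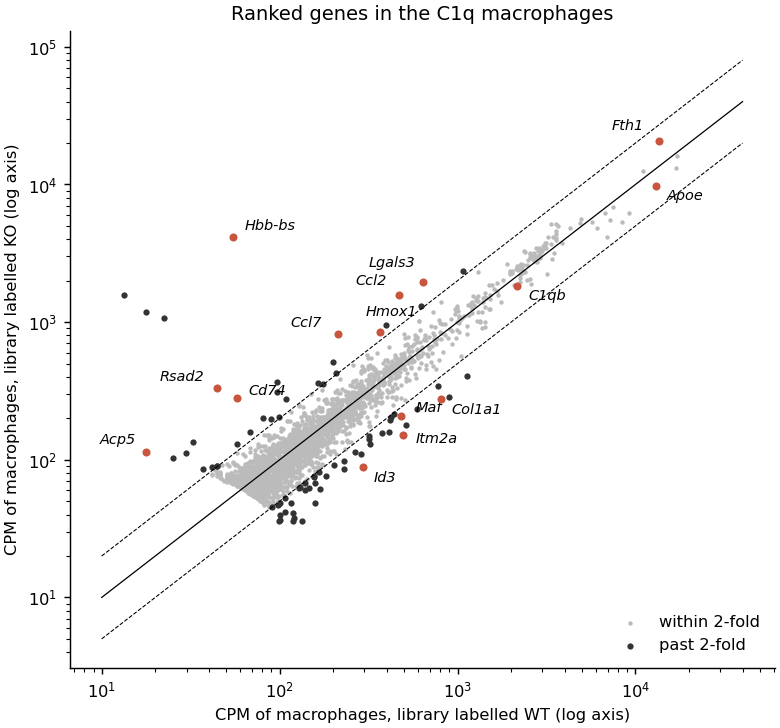
CPM of each ranked gene in the macrophages of the library labelled WT and of the library labelled KO, both on log axes. Black and red points outside the dashed lines are past 2-fold and red points carry names; Lgals3, Ccl2, Ccl7, Hmox1, Cd74, Rsad2 and Acp5 lie above the band, and Maf, Id3 and Itm2a below it.

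Identity and complement genes differed little. Of the 10 ranked genes of the identity list only Cx3cr1 was past 2-fold, and the list's median log2 ratio was -0.13. None of the 6 ranked complement genes was past 2-fold, and all 6 ratios, 3 of them of the C1q genes that chose the cells, were under 0 (52.5% of all ranked genes were), with a median of -0.39, though C5ar1 turned to 0.29 with every cell weighted equally. C1qa had a log2 ratio of -0.59, C1qc of -0.40 and C1qb of -0.24, values that the choice of cells shaped.

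Cx3cr1, the fractalkine receptor, had 280 UMIs in 47 of 57 cells of the library labelled WT and 186 UMIs in 49 of 78 cells of the library labelled KO. These are 416 and 196 CPM, a log2 ratio of -1.09 (-1.36 to -0.82). Per cell, its level ran from 0 through a median of 4.01 to 30.8 UMIs per 10000 in the library labelled WT, and from 0 through 1.05 to 11.5 in the library labelled KO, so the libraries overlapped. After thinning to 2000 UMIs it was detected in 63.6% of 55 cells (49.6 to 76.2) and 24.7% of 73 cells (15.3 to 36.1), against 20.7% of mast cells and 0.133% of mesenchyme. It was within 2-fold with at least 10 C1q UMIs (-0.93) and with at most 5% mitochondrial UMIs (-0.92).

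Of 12 ranked transcription factors (21 listed), 2 were past 2-fold, both lower in the library labelled KO, against 1.92% of all ranked genes. Maf, a regulator of resident macrophages, had 481 and 209 CPM (log2 ratio -1.20, -1.46 to -0.94) and a median of 3.70 and 1.47 UMIs per 10000. Id3, an inhibitor of basic helix-loop-helix factors, had 294 and 88.3 CPM (-1.74), below the level of other cells in both libraries. Spi1 (0.33) and Runx1 (-0.30), a regulator of blood cell development, stayed within 2-fold.

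Of 9 ranked genes of resident macrophages 8 had a ratio under 0, against 52.5% of all ranked genes, with a median of -0.43, and Igf1 alone was past 2-fold (-1.17, -1.49 to -0.85), though not with at least 10 C1q UMIs (-0.94). Pf4 was the exception with 805 and 1402 CPM (0.80). Mrc1 had -0.37, F13a1 -0.34, Lyve1 -0.34 and Folr2 -0.35 (46 and 51 UMIs). The sign of Lyve1 turned under 4 alternatives, to 0.26 with every cell weighted equally and 0.27 after thinning, and 41.9% of its UMIs in the library labelled WT came from 1 cell. Gas6 turned to 0.59 after thinning. In the list for the uptake of dying cells, 4 of 6 ranked genes had a ratio under 0. Lrp1, a scavenger receptor, had 138 and 68.3 CPM (-1.02, within 2-fold under 6 alternatives, such as -0.86 without the cells rich in mesenchyme genes), Stab1, a receptor for phosphatidylserine, 208 and 109 CPM (-0.93), Trem2 -0.59, and Cd36, a fatty acid and debris receptor, 110 and 191 CPM (0.80). Mertk had 28 and 17 UMIs.

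Lysosomal genes were high in both libraries. Of 22 ranked ones none was past 2-fold and 14 were enriched, against 9.83% of all ranked genes. A ratio under 0 was found for 17 of the 22, against 52.5% of all ranked genes, and the median ratio was -0.25. The proteases Ctsb (2448 and 2024 CPM) and Lgmn (662 and 492 CPM) were 15.3-fold or more above other cells in both libraries. Ctsl was the highest of the list in ratio (0.75).

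Within the lipid and iron lists, most UMIs came from Apoe, Fth1 and Ftl1. Apoe, the carrier of cholesterol, had 13042 and 9745 CPM (-0.42), against 99.2 and 145 in the other cells. Fth1, the heavy chain of ferritin, had 13504 and 20844 CPM (0.63), and Ftl1, the light chain, had 10988 and 12590 CPM (0.20). Hmox1, which breaks down haem, had 247 UMIs in 38 cells and 808 UMIs in 62 cells, 367 and 849 CPM, a log2 ratio of 1.21 (1.004 to 1.42). Its ratio in the other kept cells was 1.74.

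Lgals3, a secreted galectin of the lipid list, was the only one of its 9 ranked genes past 2-fold. It had 431 UMIs in 40 of 57 cells and 1867 UMIs in 68 of 78 cells, 640.2 and 1963 CPM, a log2 ratio of 1.62 (1.46 to 1.77). Per cell it ran from 0 through a median of 1.68 to 46.9 UMIs per 10000 in the library labelled WT and from 0 through 11.9 to 88.7 in the library labelled KO. In the other cells its ratio was 0.66. S100a6, a calcium-binding protein, had 22 and 128 UMIs (2.04, 1.38 to 2.77), and Lyz2, lysozyme, had 622 and 1313 CPM (1.08), of which 20.5% came from 1 cell in the library labelled KO. Both belong to the monocyte list, and Lyz2 was within 2-fold without the top cell of each library (0.90) and after thinning (0.62).

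Chemokine genes were uneven among cells. Ccl2, which attracts monocytes, had 468 and 1564 CPM (1.74, 1.57 to 1.92) but medians per cell of 1.18 and 1.33 UMIs per 10000, so the excess lay in the upper cells, the highest at 46.0 and 142. Its neighbour Ccl7 had 212 and 816 CPM (1.94, 1.68 to 2.21), with 25.6% from 1 cell of the library labelled KO. Cxcl1, which attracts neutrophils, was also past 2-fold (165 and 359.6 CPM, 1.12), from 15 and 13 cells. Cxcl1 was within 2-fold under 4 alternatives, at the least 0.47 after thinning. Tnf, an inflammatory cytokine, was lower in the library labelled KO (138 and 59.9 CPM, -1.20), but within 2-fold with at most 5% mitochondrial UMIs (-0.57). The other 11 of the 15 ranked genes, among them Ccl3 (0.10), Ccl4 (0.18), Cxcl2 (0.61) and Cxcl10 (-0.14), were within 2-fold, and the list's median was 0.10. In sign, Cxcl10 turned to 0.41 with at most 5% mitochondrial UMIs, Ccl4 to -0.20 after thinning and Ccl3 to -0.06 with every cell weighted equally.

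**Figure D4:**
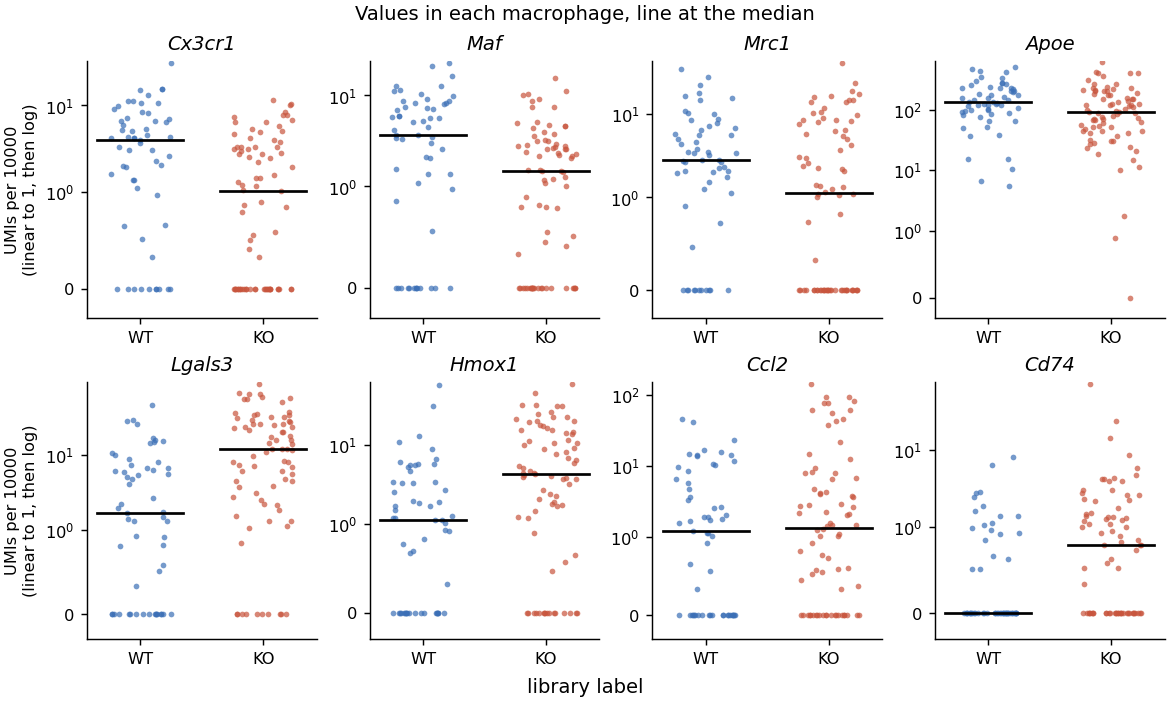
Values of 8 genes in each macrophage as UMIs per 10000 UMIs of the cell, by library label, on an axis that is linear to 1 and logarithmic above. Points are cells and lines are medians; Cx3cr1, Maf, Mrc1 and Apoe have lower medians and Lgals3, Hmox1 and Cd74 higher ones in the library labelled KO, Ccl2 differs in its upper cells, and all 8 genes overlap.

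With the main settings, the interferon response had the highest median ratio among the lists with at least 5 ranked genes. With at most 5% mitochondrial UMIs its median (0.89) was below that of the cartilage list (1.21). Of 6 ranked interferon genes 4 were past 2-fold, all higher in the library labelled KO, against 1.35% of all ranked genes. The median log2 ratio of the 6 was 1.28, against 0.65 in the other cells. Ifi27l2a had 65 and 295 UMIs (1.68, 1.29 to 2.09), Ifitm3 had 135 and 485 (1.35) and Isg15 had 46 and 151 (1.22). After thinning to 2000 UMIs, Ifitm3 (0.71) and Isg15 (0.76) were within 2-fold, as was Ifitm3 with at most 5% mitochondrial UMIs (0.74). Rsad2, the antiviral protein viperin, had 30 UMIs in 8 cells and 315 UMIs in 15 cells (2.89), and 54.0% of the latter came from 1 cell. Without the top cell of each library it was 2.29. That cell also held 31 UMIs of Ifit1, 17 of Isg15 and 32 of Ifitm3. Bst2 (0.00) and Ifi204 (0.31) stayed within 2-fold. Oasl1, a related gene outside the list, had 25.3 and 103 CPM (2.03).

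Among MHC class II genes, which present antigen, Cd74 was found in many cells, whereas most UMIs of H2-Aa, H2-Ab1 and H2-Eb1 came from 1 cell. Cd74, the invariant chain, had 39 UMIs in 20 cells and 266 UMIs in 47 cells, a log2 ratio of 2.27 (1.78 to 2.80), and 1.52 without the top cell of each library. H2-Aa had 0 and 54 UMIs, at least 12.7-fold higher against a floor of 3 counts, but 53 of the 54 were in 1 cell. That cell had 18259 UMIs in all, 131 of Cd74, 39 of H2-Ab1 and 49 of H2-Eb1, and only 6 C1q UMIs, all of C1qb. Besides it, 8 cells of the library labelled KO and 2 of the library labelled WT had 5 or more class II UMIs, the highest with 26. All 4 ranked MHC class I and processing genes had ratios above 0 (47.5% of all ranked genes did), such as H2-D1 (309 and 575 CPM, 0.90), and none was past 2-fold. Their median was 0.64 in the macrophages and 1.95 in the other cells. B2m, the light chain of class I, turned to -0.27 after thinning.

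Acp5, an acid phosphatase of osteoclasts and some macrophages, had 12 UMIs in 7 cells and 109 UMIs in 21 cells (2.68, 1.82 to 3.68). Mmp9, a protease of osteoclasts, had 1 and 38 UMIs in 1 and 2 cells. In 1 cell of the library labelled KO, 34 UMIs of Acp5 and 18 of Mmp9 stood beside 8 C1q UMIs. Calcr and Ocstamp, which mark mature osteoclasts, had 0 UMIs, and Ctsk had 13 and 8.

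Cycling cells were found in both libraries. Cells with 5 or more UMIs of Mki67, Top2a, Cdk1, Birc5, Cenpf, Ccna2 and Ccnb1 numbered 17 (29.8%, 18.4 to 43.4) and 21 (26.9%, 17.5 to 38.2). These genes reached 116 UMIs in the highest cell of the library labelled WT and 39 in that of the library labelled KO. Both cells carried markers of other cells. The first was the deepest macrophage (41143 UMIs) and had 11 UMIs of the muscle genes Myod1, Myog, Pax7 and Myf5, and the second had 168 UMIs of the mesenchyme markers. The next cells of the library labelled WT had 64 cycling UMIs with 114 C1q and 11 mesenchyme UMIs, and 61 with 10 C1q and 179 mesenchyme UMIs. The part of RNA from other cells in these counts was not tested. Of 8 ranked cell cycle genes 2 were past 2-fold and lower in the library labelled KO, against 1.92% of all ranked genes. They were Top2a (-1.38, and -0.96 with at most 5% mitochondrial UMIs) and Mki67 (-1.27, and -0.99 after thinning). All 8 were under 0 (52.5% of all ranked genes were), with a median of -0.56 in the macrophages and -0.48 in the other cells. The DNA replication genes Mcm3 (0.59 after thinning) and Pcna (0.13 with at most 5% mitochondrial UMIs) and the cyclin gene Ccnd1 (0.077 after thinning) turned in sign.

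**Figure D5:**
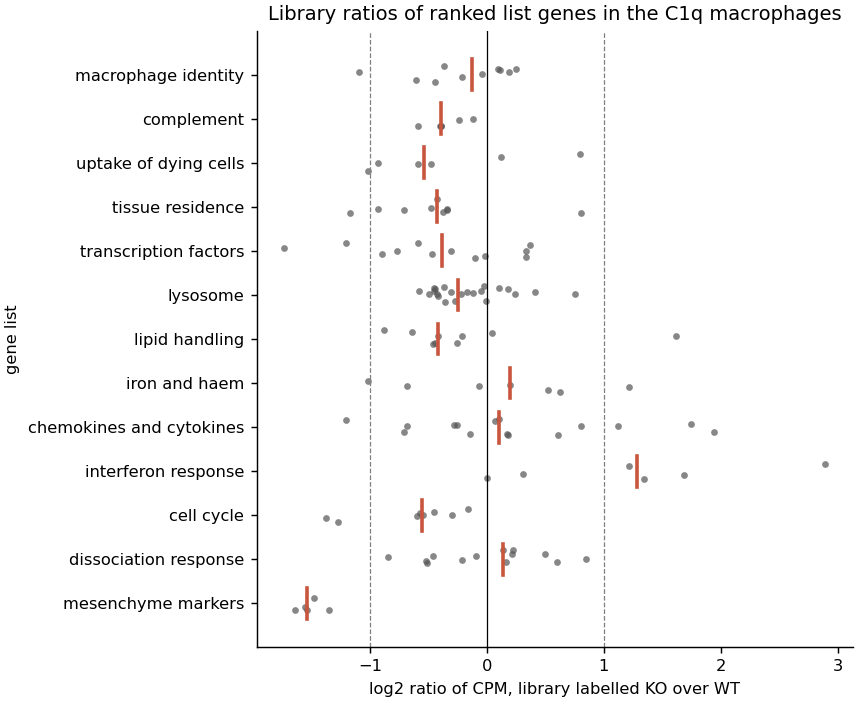
Log2 ratio of CPM in the macrophages, library labelled KO over WT, of each ranked gene of 13 lists. Points are genes, red lines are list medians and dashed lines mark 2-fold; the interferon median lies at 1.28, the mesenchyme median at -1.54 and the other medians between -0.56 and 0.20.

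Immediate early and heat shock genes, which enzymatic dissociation can raise, were present in both libraries. All 13 of them were ranked and none was past 2-fold. Their summed level was 8738 and 8867 CPM in the macrophages and 9307 and 11860 CPM in the other cells, with Atf3 the most abundant (1664 and 1928 CPM). All 4 ranked p53 target and death genes had ratios above 0 (47.5% of all ranked genes did), and none was past 2-fold. Their median was 0.63 in the macrophages and 0.31 in the other cells.

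Markers of other cells were found in the macrophages and moved with some ratios. The 6 mesenchyme markers summed to 2559 CPM in the library labelled WT and 881 in the library labelled KO, against 5643 and 3985 in the other cells, with Col1a2 the most abundant (896 and 287 CPM). All 5 ranked ones were past 2-fold and lower in the library labelled KO, with a median of -1.54, against 1.92% of all ranked genes lower past 2-fold. Cells with 50 or more UMIs of these markers numbered 8 and 5 and held 89.4% and 73.0% of them. Without the cells in which these markers made up 0.5% or more of the UMIs, the median was -0.67. The genes lower in the library labelled KO past 2-fold were then 28 of 2180 ranked ones, against 47 of 2442 with all macrophages. Of the lower genes, Col6a1, Col6a2, Col1a1, Col1a2, Dcn and Peg3 were no longer past 2-fold without these cells, nor was Lrp1, whereas Id3 (-1.34), Itm2a (-1.06), a membrane protein, Itga6 (-1.74), an integrin subunit, Maf (-1.09) and Cx3cr1 (-1.23) still were. Srebf2, a regulator of sterol synthesis, had the lowest ratio of all ranked genes (-1.90), and -0.99 without the top cell of each library. The part of mesenchymal RNA in the remaining ratios was not tested.

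The 4 adult globin genes had the highest ratios of all ranked genes, from 5.59 for Hba-a2 to 6.88 for Hbb-bt. They came from 1 cell of the library labelled KO, in which 7469 of 9103 UMIs (82.0%) were globin and 22 were C1q. This cell held 7469 of the 7604 UMIs of the globin list in that library, and without the top cells Hbb-bs had a ratio of 0.52 and Hba-a2 of -0.28. Hbb-bt stayed past 2-fold in that setting, but was at 0.80 when the globin-rich cell alone was left out. Cartilage markers summed to 1233 and 811 CPM, of which 1 cell held 74.7% in the library labelled WT and 1 cell 44.4% in the library labelled KO, and without the top cells their median ratio turned from -0.60 to 0.52. Muscle markers summed to 147 and 65.2 CPM, with 28.3% and 79.0% in 1 cell. Endothelial markers summed to 41.6 and 68.3 CPM, neuronal ones to 34.2 and 54.7 (39.1% and 61.5% in 1 cell), lymphoid ones to 26.7 and 21.0, with Il7r the most abundant, and epidermal ones to 10.4 and 14.7. Of the lymphoid markers Cd3e, Trbc1, Nkg7 and Klrb1c had 0 UMIs. Mast cell markers summed to 5.94 and 38.9 CPM, Cma1 had 0 and 11 UMIs, and Mcpt4 was at 0.

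Across the macrophages themselves, the genes with the widest spread after thinning were, besides the globins, Ccl4, Cxcl2, Rsad2, Apoe, Ccl3, Fth1, Malat1 (a nuclear RNA), Cxcl10, Ccl2, Col2a1 and Ccl5. The variance was 37.1 times the mean for Ccl4, 28.0 times for Cxcl2 and 20.2 times for Apoe, against a median of 1.07 over 2967 genes. Cells with 20 or more UMIs of Ccl3, Ccl4, Cxcl2, Ccl2 and Ccl7 numbered 47 (82.5%) and 54 (69.2%), and the highest cell, of the library labelled KO, had 1704 of them, 1286 from Cxcl2. Ccl4 ran from 0 through medians of 12.9 and 10.6 to 722 and 523 UMIs per 10000.

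A contrast between Cx3cr1 and Lgals3 ran through both libraries. In the thinned cells the rank correlation of Cx3cr1 with Lgals3 was -0.49 over 128 cells, -0.34 within the library labelled WT and -0.45 within the library labelled KO. The 35 cells with a Cx3cr1 UMI in the library labelled WT had a mean of 4.71 Lgals3 UMIs per 10000 and the 20 without had 9. In the library labelled KO the 18 cells with had 7.5 and the 55 without had 24.7. Fth1 followed Lgals3, with means of 132 and 193 in the first library and 135 and 235 in the second, and so did Vim, an intermediate filament protein (8.43 and 14, 7.78 and 27.5). Maf was higher where Cx3cr1 was detected, with means of 5.86 against 3 and 5 against 1.18. These are descriptions of cells of 2 libraries.

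Cells with and without Mrc1 also differed. In the library labelled KO, the 28 thinned cells with a Mrc1 UMI had a mean of 29.1 Pf4 UMIs per 10000 and the 45 without had 4.44, and for Ccl2 the means were 34.6 and 3.67. In the library labelled WT, Pf4 had means of 9.17 in 30 cells with and 7.60 in 25 cells without, and Ccl2 of 4 and 7.60, so the difference was smaller there for Pf4 and turned for Ccl2. The Mrc1 cells of the library labelled KO also had more Cx3cr1 (3.21 against 1.22) and less Lgals3 (11.8 against 25.9). The split there thus overlaps the one by Cx3cr1, by which Pf4 had means of 30 and 8.64. In the library labelled WT, Cx3cr1 was also higher with Mrc1 (7 against 4.20), but Lgals3 was not lower (6.67 against 5.80). Lyve1 was higher with Mrc1 in both libraries (2.33 against 0.20 and 3.93 against 0.22). Cells with 5 or more UMIs of Mrc1, Lyve1, Folr2 and F13a1 numbered 33 of 57 (57.9%, 44.1 to 70.9) and 32 of 78 (41.0%, 30.01 to 52.7).

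The C1q level of a cell followed Apoe (rank correlation 0.75 over 128 thinned cells, 0.71 and 0.73 within the libraries) and the summed lysosomal genes (0.70, 0.66 and 0.69), and less so Trem2 (0.45) and Cx3cr1 (0.38). Its correlation was 0.10 with Mrc1 and 0.04 with Lyz2. The summed mesenchyme genes ran against C1q (-0.29, and -0.51 and -0.17 within the libraries), Apoe (-0.23, -0.44 and -0.12) and the lysosomal genes (-0.38, -0.57 and -0.26), and their part in the correlations above was not tested. These correlations are descriptions, since the C1q genes chose the cells and cells under 5 C1q UMIs were not among them. The cells also shared library and depth, and a link between the genes was not tested.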

How the data were processed

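Cells of 2 libraries, 1 per genotype, were analysed. The deposited table holds UMI counts of 32285 genes in 27766 barcodes, unnormalized, which the authors made with Cell Ranger (5.0.0 in the file header, 3.1.0 in the submitters' processing notes) on mm10 and aggregated over both libraries after down-sampling reads. A barcode suffix was assigned to a library by the number of barcodes, 15268 and 12498, equal to the cell number in each deposited summary. Total depth was 156093779 and 128116615 UMIs.

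Barcodes with at least 1000 UMIs and at most 10% mitochondrial UMIs were kept, with no doublet caller. UMIs were summed per library and scaled to CPM. Log2 ratios have exact 95% intervals from the binomial split of the counts, shares have Clopper-Pearson intervals, and the ratio of shares has a log interval. All cover counting error only. Genes with 100 or more UMIs over the macrophages were ranked. Cells were thinned to 2000 UMIs with seed 1 where detection was compared. Comparison cells had under 5 C1q UMIs and met 1 of 4 definitions only: mast cells as above, endothelial cells with 5 or more UMIs of Cdh5 and Kdr, mesenchyme with 50 or more of Col1a1, Col1a2 and Col3a1, and muscle cells as above. Genes were named from 31 lists and as the 20 most enriched, the 10 highest and 10 lowest in ratio, and the 15 most variable. The members and lists were chosen with earlier results of these data known. The gene sets behind counts of cells, their UMI limits, the splits by Cx3cr1 and Mrc1, the 0.5% limit and the setting without the top cell were chosen after seeing the data. Cd84 and Vim were named after their values were seen. The ratios and intervals were run on simulated counts that varied by counting error only, and 96.1% of the intervals held the set ratio. Those counts had no spread between cells, so the run cannot show how the intervals hold for these cells. Gene positions are from GENCODE vM21 (GRCm38) and promoters from RefSeq (GRCm38.p6). Python 3.11.15, NumPy 2.4.6, SciPy 1.17.1 and pandas 2.3.3 were used. Some genes of the lists are not reported here by name.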

Additional observations from a re-analysis of the deposited data

Results flagged for a closer look

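Cx3cr1, Tnf and Cd84 were drawn out because their library ratios pointed opposite ways in the macrophages and in all other kept cells, each past 2-fold. The difference itself was not tested, since each genotype was 1 library. Cx3cr1 had a log2 ratio of -1.09 in the macrophages (-0.92 with at most 5% mitochondrial UMIs) and 2.43 in the other cells, where its level was 1.26 and 6.78 CPM. Tnf had -1.20 (-0.57 with at most 5% mitochondrial UMIs) and 2.30, with 0.291 and 1.43 CPM in the other cells. Cd84, an adhesion receptor of blood cells, had 61 and 43 UMIs in the macrophages, a log2 ratio of -1.003, and 2.10 in the other cells, where it had 17 and 60 UMIs. Its ratio in the macrophages lay at the 2-fold limit and was not run under the alternatives. With the median ratio of the ranked genes, -0.02, set to 0 it would be within 2-fold. Within the 30 and 295 mast cells, Cx3cr1 was at 178 and 133 CPM and Tnf at 14.3 and 13.2, so neither was higher there in the library labelled KO. The part of the different numbers of mast cells in the ratios of the other cells was not tested.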

How the results depend on the processing

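No paired analysis was possible because each genotype was 1 library. The log2 ratio of macrophage shares stayed above 0 under all 8 alternatives tried, from 0.54 to 1.22. Among the 8, a limit of under 5 mast cell UMIs left out no macrophage and so could not change it. The share in the library labelled WT moved to 0.339% with at most 5% mitochondrial UMIs. Under that setting the genes lower in the library labelled KO past 2-fold were 28 of 1898 ranked ones, against 47 of 2442 in the main result. List medians were then 0.44 for chemokines, 0.89 for interferon and 1.21 for cartilage genes. Without cells at 0.5% or more in mesenchyme genes the lower genes were 28 of 2180 ranked ones and the mesenchyme median was -0.67. Thinning to 2000 UMIs left a median of 31 in place of 201 UMIs per ranked gene, and 137 higher and 134 lower genes. It gave medians of 0.087 for lipid, 0.74 for interferon, 0.16 for growth factor and -0.087 for cartilage genes. A limit of 20 UMIs gave 198 higher, 495 lower and 530 enriched genes, and a limit of 300 UMIs gave 20, 16 and 106. The iron list moved to 0.27 with at least 3 C1q UMIs and without the top cell per gene. The cartilage list moved from -0.60 to -0.10 with every cell weighted equally and to 0.52 without the top cell. Hba-a2 turned to -0.39 without the cell rich in globin and to -0.28 without the top cell, and Dcn to 0.68 without the cells rich in mesenchyme genes. Of 2506 values of 179 named genes under 14 alternatives, 2269 stayed within the counting interval. This total includes alternatives that could not change a ratio. The limits of 20 and 300 UMIs only set which genes were ranked, and under 5 mast cell UMIs left out no macrophage. Outside the interval were 82 of 179 values after thinning and 42 with at most 5% mitochondrial UMIs. Of the 179 named genes 37 were past 2-fold, and 14 of the 37 were so in every alternative, among them Maf, Lgals3, Hmox1, Ccl2, Ccl7, Cd74, Rsad2 and Acp5. Cd84 was not among the 37. Cx3cr1 ranged from -1.53 to -0.92. Cxcl1, Lrp1, Lyz2, Ifitm3, Isg15, Tnf, Igf1, Mki67 and Top2a were within 2-fold under at least 1 alternative.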
